A study of Mus musculus with 12 samples.

Results

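The 9 transcripts described here encode RNA-binding proteins that control translation and mRNA fate in germ cells or read N6-methyladenosine (m6A), a methyl mark on mRNA. They were taken by gene symbol, as 9 of the 24259 rows of the expression table, and are *Dazl*, *Ddx4*, *Ythdf2*, *Ythdc2*, *Igf2bp2*, *Igf2bp3*, *Elavl2*, *Pum2* and *Stau1*. RNA was sequenced from germinal vesicle (GV) oocytes, which are arrested in meiotic prophase, after their lysates had been spun through sucrose gradients. Gradient fractions 1 to 10 formed the RNP pool of RNA in light ribonucleoprotein particles, and fractions 11 to 28 formed the polysome pool of RNA in the heavier fractions. The groups were WT polysome, WT RNP, KO polysome and KO RNP, with 3 libraries each and 12 in all, from lysates of about 1500 oocytes. Both pools are parts of a gradient, and which RNP and polysome libraries share a lysate is not given in the sources used here. Tests that involve both pools treat their libraries as unpaired, unless a replicate block is named.

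All oocytes came from 3-week-old mice on a C57BL/6J background, 46 h after 5 IU of pregnant mare serum gonadotropin (PMSG), and were stored in cycloheximide, which holds ribosomes on mRNA. The KO mice were homozygous for the tm1a allele of *Lsm14b*, a reporter-tagged insertion. Oocytes were pooled for each lysate, and whether the 3 lysates of a group came from different animals is not given in the sources used here. The p-values then measure only the spread between these libraries, which may be technical.

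A growing oocyte stores mRNA and later directs its translation while transcription is silent, so proteins bound to 3′ untranslated regions (3′ UTRs) decide much of its protein supply. DAZL is a germ-cell protein that promotes translation of stored mRNAs, and DDX4 is the germ-cell DEAD-box helicase also known as VASA. YTHDF2 binds m6A and recruits deadenylation, YTHDC2 is an m6A-binding helicase needed for entry into meiosis, and IGF2BP2 and IGF2BP3 stabilize bound mRNAs, while ELAVL2, PUM2 and STAU1 bind U-rich elements, Pumilio elements and double-stranded RNA.

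Levels are in FPKM, which divides fragments by the length of the transcript and by the size of the library, and are given for replicates 1, 2 and 3 in that order. Depth, estimated from the steps of the lowest values, was 4.68 to 7.87 M fragments a library. KO polysome replicate 2 stood apart, since its 10 most abundant genes held 34.7% of the summed FPKM, mostly through *Mir300* at 170809 FPKM, against 11.6% to 14.7% in the other 11 libraries. *Lsm14b* itself was at 11.3, 15.3 and 13.2 FPKM in WT polysomes, against 0.260, 0 and 0.0876 FPKM in KO polysomes. In the RNP pool it was at 34.6, 29.3 and 27.4 FPKM in WT and at 0.893, 0.0627 and 0 FPKM in the KO. Every KO library was therefore below every WT library, as the genotype labels say. All 12 oocyte markers looked up, among them *Gdf9*, *Bmp15* and the zona pellucida genes, were at 1 FPKM or more in each library. In limma 5 of them were higher in KO than in WT polysomes and 8 in the RNP pool, with 0 lower in either, where 5.64% and 10.5% of all genes tested were higher.

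Some markers of other ovarian cells differed between the groups. The summed level of 13 granulosa and cumulus markers was 75.6, 27.5 and 43.9 FPKM in WT polysomes and 81.4, 86.2 and 103 FPKM in KO polysomes. In the RNP pool the sum was 37.2, 31.4 and 35.5 FPKM in WT and 66.4, 60.8 and 43.2 FPKM in the KO. The KO sums were above the WT sums in both pools, with 6 to 7 of the 13 markers at 1 FPKM or more in KO polysomes and 3 to 4 in WT polysomes. *Inha*, which encodes the inhibin alpha subunit, was at 9.58, 0 and 8.11 FPKM in WT polysomes and was the most abundant of them in KO polysomes, at 51.4, 39.4 and 39.5 FPKM. Without *Inha* the polysome sums overlapped, at 66.0, 27.5 and 35.8 FPKM in WT and 29.9, 46.8 and 63.8 FPKM in the KO. The RNP sums without it were still higher in the KO, at 55.4, 54.7 and 39.4 FPKM, than in WT, at 37.2, 31.2 and 35.5 FPKM. *Inhba* was at 0.252, 0 and 0 FPKM in WT polysomes and 3.72, 8.27 and 11.9 FPKM in KO polysomes, and *Fshr* was at 0, 0 and 0.700 FPKM and at 4.36, 3.14 and 6.74 FPKM. The RNP levels of *Fshr* were 4.12, 5.62 and 5.33 FPKM in WT and 13.6, 9.77 and 7.57 FPKM in the KO, so its genotypes overlapped in neither pool. *Cyp19a1*, the largest part of each sum without *Inha*, overlapped between the genotypes in polysomes, at 19.0 to 62.0 FPKM in WT and 14.6 to 34.5 FPKM in the KO, so that sum shows little of markers at lower levels. *Foxl2* was listed at 0 in every library but KO RNP replicate 2. The part of these cells in the differences below was not tested. In bulk samples like these, fewer cells of a type and less RNA per cell cannot be told apart. The 9 theca and stroma markers summed to at most 3.22 FPKM in any library, and of the 10 immune, blood and endothelial markers *Pecam1* was the most abundant in each library.

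All 9 transcripts passed the filter on low values in each comparison, which asked for 3 or more of the libraries compared to reach 1 FPKM. *Igf2bp2* and *Stau1* were the most abundant by mean FPKM in WT polysomes, WT RNP and KO RNP, and *Ddx4* and *Ythdc2* were the least abundant in both WT groups. In WT polysomes the order of mean FPKM was *Igf2bp2*, *Stau1*, *Ythdf2*, *Dazl*, *Elavl2*, *Igf2bp3*, *Pum2*, *Ddx4* and *Ythdc2*. The ranges of the libraries overlapped between *Igf2bp2* and *Stau1*, between *Ythdf2* and *Dazl* and between *Dazl* and *Elavl2*. That of *Pum2* overlapped those of *Ddx4* and *Ythdc2*. The order within these pairs is not beyond their spread. In KO polysomes *Ythdf2* was in place 1, with a range apart from that of *Igf2bp2* behind it, and *Dazl* was in place 7, with a range that overlapped those of *Igf2bp3*, *Ddx4* and *Pum2*. Of the FPKM summed over the 9 transcripts, *Ythdf2* took 14.5%, 19.6% and 17.8% in WT polysomes and 35.8%, 35.3% and 41.3% in KO polysomes. *Dazl* took 9.31%, 16.7% and 8.91% of the sum in WT polysomes and 3.04%, 1.49% and 2.68% in KO polysomes.

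**Figure D1:**
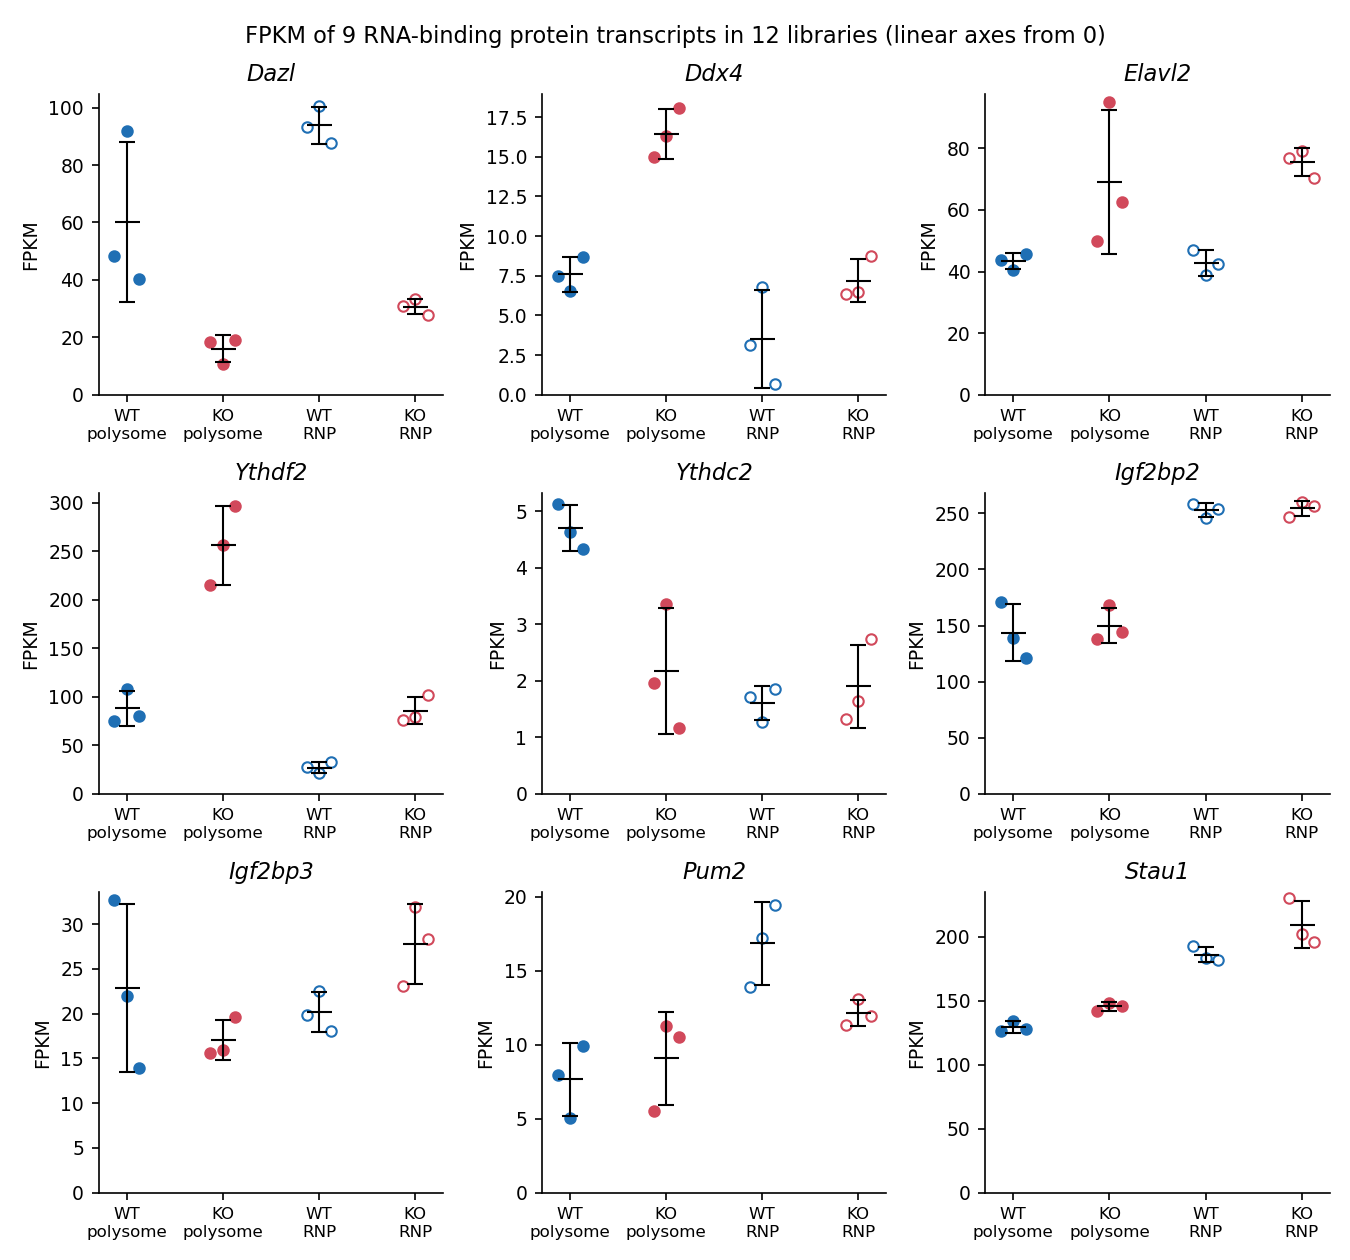
FPKM of the 9 transcripts in each of 12 libraries, on linear axes from 0. Points are libraries (blue, WT; red, KO; filled, polysome pool; open, RNP pool), and bars are the mean and SD of 3 libraries. *Dazl* is lower and *Ythdf2* higher in every KO library than in every WT library of the same pool.

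The genotypes were compared within each pool with limma on log2(FPKM + 1), a scale on which changes of weakly expressed transcripts appear smaller. In the polysome pool 2 of the 9 transcripts differed between KO and WT at a limma adjusted p under 0.05, against 10.4% of 9536 genes tested. *Ythdf2* was higher and *Dazl* was lower in the KO. Without KO replicate 2 only *Ythdf2* of the 9 was called, and the count over all genes, 989, was 522, 398 and 383 without KO replicate 1, 2 and 3. In the RNP pool 3 of the 9 differed, *Ythdf2* and *Elavl2* higher and *Dazl* lower in the KO, against 20.7% of 9931 genes. Without WT replicate 2, *Ddx4* was called as well. That count of genes, 2057, was 1255, 1259 and 1298 without KO replicate 1, 2 and 3. The median change of the 9 was 0.17 on the log2 scale in each pool, and that of all genes was 0.10 in polysomes and 0.05 in the RNP pool. The KO and WT ranges did not overlap for 6 of the 9 in polysomes, as for 31.7% of all genes, and for 6 of the 9 in the RNP pool, as for 39.2% of all genes.

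**Figure D2:**
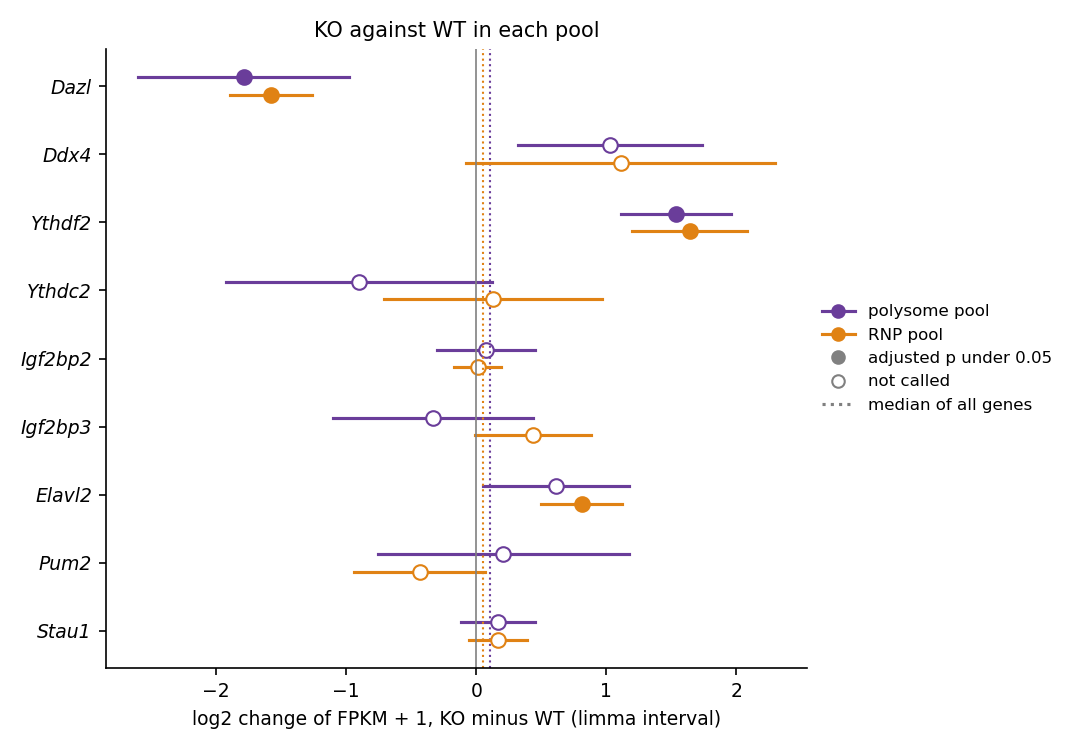
Change between KO and WT of each of the 9 transcripts in the polysome pool (purple) and the RNP pool (orange), as log2 of FPKM + 1 with 95% intervals from limma, 3 libraries against 3. Filled points have an adjusted p under 0.05 and dotted lines mark the median of all genes tested. *Dazl* lies to the left and *Ythdf2* to the right of 0 in both pools.

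*Dazl* is on chromosome 17 of mm10 from 50279391 to 50293620, on the minus strand. It was at 48.2, 92.0 and 40.3 FPKM in WT polysomes, against 18.3, 10.8 and 19.2 FPKM in KO polysomes. Its RNP levels were 93.3, 100.4 and 87.7 FPKM in WT and 30.8, 33.4 and 27.9 FPKM in the KO. The KO libraries were low in both pools and did not overlap with WT, although WT polysome replicate 2 stood well above replicates 1 and 3. The mean FPKM was 3.74 times lower in KO than in WT polysomes and 3.05 times lower in the RNP pool. On the log2 scale *Dazl* changed by -1.79 in polysomes (standard error 0.36, limma adjusted p = 0.0174), and the RNP change was -1.58 (standard error 0.14, limma adjusted p = 0.000141). Without KO replicate 2 the polysome change was -1.54 with a limma adjusted p of 0.0573. The limma adjusted p was 0.0551 with no filter on low values and 0.0567 with no intensity trend, and it ranged from 0.0104 to 0.0573 over the alternatives tried. The RNP change had a limma adjusted p of at most 0.00571 under every alternative tried.

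*Ddx4*, on chromosome 13 of mm10 from 112598331 to 112652310, was at 7.50, 6.54 and 8.71 FPKM in WT polysomes, against 15.0, 16.3 and 18.1 FPKM in KO polysomes. Its RNP levels were 3.13, 6.80 and 0.652 FPKM in WT and 6.34, 6.45 and 8.77 FPKM in the KO. All KO polysome libraries were above all WT polysome libraries, while in the RNP pool WT replicate 2 lay within the KO range and WT replicate 3, with about 11.8 fragments, was the lowest. Neither difference passed the test, with a change of 1.03 in polysomes (standard error 0.31, limma adjusted p = 0.0709) and of 1.11 in the RNP pool (standard error 0.53, limma adjusted p = 0.172). Without WT replicate 2 the RNP change was 1.64 with a limma adjusted p of 0.0369, and without WT replicate 3 it was 0.52 with a limma adjusted p of 0.368. Over the alternatives tried, the limma adjusted p ranged from 0.0369 to 0.368 for the RNP change. For the polysome change it ranged from 0.0535 to 0.23, so that change was called under no alternative.

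The ends of the 3′ UTRs were searched for short elements that bear on polyadenylation and binding of the listed proteins. In oocytes, the cytoplasmic polyadenylation element is bound by CPEB1, and it works together with the polyadenylation hexamer to lengthen poly(A) tails of stored mRNAs. The last 100 bases of the 3′ UTR of 1 transcript a gene, in the transcribed direction, were searched in GENCODE M21 for TTTTAT (cytoplasmic polyadenylation element), AATAAA (polyadenylation hexamer) and TGTANATA (Pumilio element). TTTTAT was found in 1 of the 9 transcripts, *Ddx4*, and in 13.7% of 19924 genes. AATAAA was found in 7 of the 9, all but *Ythdf2* and *Igf2bp2*, and in 63.6% of genes, and TGTANATA in 0 of the 9 and in 4.24% of genes. Sites are shown as examples, with the matching letters in capitals, for *Dazl* and *Elavl2*, which were called between the genotypes, and for *Ddx4*, which alone of the 9 has TTTTAT in this window. A match is a description of the letters, no match says only that they are not in this window, and the 3′ ends used in oocytes may differ from the annotated ones. The sequences are on the minus strand of GRCm38, at chr17:50279400-50279429 for *Dazl*, chr13:112598371-112598400 and chr13:112598344-112598373 for the sites of *Ddx4*, and chr4:91250770-91250799 for *Elavl2*, each in the 3′ UTR.
Dazl hexamer: cttgtatacacgAATAAAacctttttttca
Ddx4 cytoplasmic polyadenylation element: acaaatgtttgcTTTTATaatatacagatt
Ddx4 hexamer: attttccttgcaAATAAAagatgaaacaca
Elavl2 hexamer: gttcggtacatcAATAAAcaaagttgaagg

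Among the m6A readers, *Ythdf2*, on chromosome 4 of mm10 from 132184914 to 132212256, was at 75.2, 108 and 80.4 FPKM in WT polysomes, against 215, 256 and 297 FPKM in KO polysomes. Its RNP levels were 27.4, 21.1 and 32.5 FPKM in WT and 76.0, 79.0 and 102 FPKM in the KO. The KO libraries were high in both pools, and neither pool showed an overlap with WT. The mean FPKM was 2.91 times higher in KO than in WT polysomes and 3.18 times higher in the RNP pool. The change was 1.54 on the log2 scale in polysomes (standard error 0.19, limma adjusted p = 0.00311) and 1.64 in the RNP pool (standard error 0.20, limma adjusted p = 0.000677). Every alternative tried kept both calls, with limma adjusted p values of at most 0.0315 in polysomes and 0.0101 in the RNP pool. With the changes of all genes tested ordered from the most negative to the most positive, the polysome change stood at percentile 95.6 and the RNP change at percentile 97.8.

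*Ythdc2* was a transcript of low level. It was at 5.13, 4.64 and 4.32 FPKM in WT polysomes, against 1.96, 3.37 and 1.16 FPKM in KO polysomes. Its RNP levels were 1.70, 1.26 and 1.85 FPKM in WT and 1.33, 1.63 and 2.73 FPKM in the KO. The KO polysome libraries were below the WT polysome libraries with no overlap, while the RNP libraries of the genotypes overlapped. Neither the polysome change of -0.90 was called (standard error 0.45, limma adjusted p = 0.242) nor the RNP change of 0.13 (standard error 0.37, limma adjusted p = 0.840). Pseudocounts of 0.1 and 5 gave polysome changes of -1.20 and -0.45, also not called.

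*Igf2bp2* was at 171, 138 and 121 FPKM in WT polysomes, against 138, 168 and 144 FPKM in KO polysomes. In the RNP pool it was at 258, 246 and 254 FPKM in WT and at 247, 260.0 and 257 FPKM in the KO. The genotypes overlapped in both pools. The intervals of the difference between KO and WT ran from -0.31 to 0.45 in polysomes and from -0.17 to 0.19 in the RNP pool, on the log2 scale. *Igf2bp3* was at 32.7, 21.9 and 14.0 FPKM in WT polysomes, 15.6, 15.9 and 19.7 FPKM in KO polysomes, 19.9, 22.5 and 18.1 FPKM in WT RNP and 23.1, 31.9 and 28.3 FPKM in KO RNP. Its genotypes overlapped in polysomes, where the WT libraries were widely spread, and did not overlap in the RNP pool, where the change of 0.44 was not called (standard error 0.20, limma adjusted p = 0.155). *Igf2bp3* shares 1529 exonic bases with *Malsu1* on the opposite strand, and the strand of the fragments was not stated to be used, so their reads cannot be told apart there. *Malsu1* was at 16.3, 6.19 and 11.6 FPKM in WT polysomes, 7.69, 9.37 and 14.2 FPKM in KO polysomes, 23.3, 11.7 and 11.0 FPKM in WT RNP and 30.4, 36.4 and 40.6 FPKM in KO RNP. Its KO RNP libraries were thus above those of all other groups. The exons of the other members overlap those of no other gene in GENCODE M21.

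*Elavl2*, on chromosome 4 of mm10 from 91250765 to 91399984, encodes a protein of U-rich 3′ UTRs with roles in oocytes and neurons. It was at 43.7, 40.7 and 45.8 FPKM in WT polysomes, against 49.8, 95.0 and 62.6 FPKM in KO polysomes. In the RNP pool it was at 47.1, 38.8 and 42.3 FPKM in WT and at 76.8, 79.3 and 70.5 FPKM in the KO. The KO libraries were above the WT libraries in both pools, narrowly so for KO polysome replicate 1. The RNP change was 0.81 (standard error 0.14, limma adjusted p = 0.00388), and its limma adjusted p was at most 0.0274 under the alternatives tried. Its polysome change was 0.61 and was not called (standard error 0.25, limma adjusted p = 0.158), and it was 0.36 without KO replicate 2.

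*Pum2* was at 7.98, 5.06 and 9.92 FPKM in WT polysomes, 5.50, 11.2 and 10.5 FPKM in KO polysomes, 13.9, 17.2 and 19.4 FPKM in WT RNP and 11.3, 13.1 and 11.9 FPKM in KO RNP. The polysome libraries of the genotypes overlapped and the KO RNP libraries were below the WT RNP libraries, where the change of -0.43 was not called (standard error 0.22, limma adjusted p = 0.206). *Stau1* was at 126, 135 and 128 FPKM in WT polysomes, 142, 149 and 146 FPKM in KO polysomes, 193, 183 and 182 FPKM in WT RNP and 230.2, 202 and 196 FPKM in KO RNP. Its KO libraries were above the WT libraries in both pools, by 1.12 times in polysomes and 1.13 times in the RNP pool by mean FPKM. With a change of 0.17 on the log2 scale in each pool, *Stau1* was not called (standard errors 0.13 and 0.10, limma adjusted p = 0.442 and 0.266), and the RNP change was 0.10 without KO replicate 1.

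The pools were next compared within each genotype, to show where in the gradient each transcript lay. A library's FPKM is a share of that library, so these are differences in share between pools, not the fraction of molecules on polysomes. In WT, 3 of the 9 transcripts differed between the pools at a limma adjusted p under 0.05, against 14.7% of 9574 genes tested. *Ythdf2* was higher in polysomes, and *Igf2bp2* and *Stau1* were higher in the RNP pool. In the KO, 6 of the 9 differed, against 29.2% of 9851 genes. *Ythdf2* and *Ddx4* were then higher in polysomes, and *Dazl*, *Igf2bp2*, *Igf2bp3* and *Stau1* were higher in the RNP pool. The pools did not overlap for 5 of the 9 in WT, as for 34.6% of all genes, and for 7 of the 9 in the KO, as for 44.2% of all genes. The median difference of the 9 was 0.02 in WT and -0.43 in the KO, beside -0.09 and -0.04 for all genes. A single replicate moved these counts. Without WT replicate 1, 2 and 3, 640, 648 and 587 genes and 2, 2 and 1 of the 9 were called in WT. Without KO replicate 1, 2 and 3, 2087, 1706 and 1800 genes and 4, 3 and 5 of the 9 were called in the KO.

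*Ythdf2* was 3.26 times higher in the polysome than in the RNP pool in WT and 2.98 times higher in the KO by mean FPKM. The differences were 1.67 (standard error 0.24, limma adjusted p = 0.00254) and 1.57 on the log2 scale (standard error 0.16, limma adjusted p = 0.000112), and every alternative tried kept both calls. *Ddx4* was 2.15 times higher in polysomes in WT, where the pools overlapped and the difference of 1.18 was not called (standard error 0.59, limma adjusted p = 0.227). That difference was 1.80 without WT replicate 2 and 0.50 without WT replicate 3. In the KO its polysome libraries were 2.29 times higher with no overlap, a difference of 1.10 (standard error 0.24, limma adjusted p = 0.00757, and 0.0602 without KO replicate 2, with a range from 0.00484 to 0.0602 over the alternatives). *Ythdc2* was 2.92 times higher in polysomes in WT with no overlap, a difference of 1.13 that was not called (standard error 0.42, limma adjusted p = 0.114, and 0.0371 with no intensity trend, with a range from 0.0371 to 0.328 over the alternatives). In WT, pseudocounts of 0.1 and 5 gave *Ythdc2* differences of 1.50 and 0.55. Its pools overlapped in the KO, with a difference of 0.10 (standard error 0.40, limma adjusted p = 0.885), which was 0.54 without KO replicate 3 and -0.22 without KO replicate 2.

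*Igf2bp2* and *Stau1* were higher in the RNP pool with no overlap in either genotype. For *Igf2bp2* the polysome libraries differed from the RNP libraries by -0.83 in WT (standard error 0.15, limma adjusted p = 0.00822) and by -0.76 in the KO (standard error 0.11, limma adjusted p = 0.000749). The WT limma adjusted p was 0.0550 without WT replicate 2, 0.0588 without WT replicate 3 and 0.0831 with no intensity trend, and it ranged from 0.00229 to 0.0831 over the alternatives. *Stau1* differed by -0.52 in both WT (standard error 0.12, limma adjusted p = 0.0243) and the KO (standard error 0.10, limma adjusted p = 0.00502). Its WT limma adjusted p was 0.156, 0.107 and 0.109 without WT replicate 1, 2 and 3. It was 0.165 with no intensity trend and 0.0601 with a block for replicate number, in a range from 0.00797 to 0.165. In the KO its limma adjusted p was 0.0578 with no intensity trend, in a range from 0.00117 to 0.0578.

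*Dazl* was 1.56 times higher in the RNP than in the polysome pool in WT and 1.91 times higher in the KO. WT polysome replicate 2 overlapped with the RNP libraries, and the WT difference of -0.72 was not called (standard error 0.29, limma adjusted p = 0.133, and 0.0436 without WT replicate 2, with a range from 0.0436 to 0.360 over the alternatives). In the KO the difference was -0.93 with no overlap (standard error 0.24, limma adjusted p = 0.0177), and the limma adjusted p was 0.0544 without KO replicate 1 and 0.106 without KO replicate 2, in a range from 0.0119 to 0.106 over the alternatives. *Igf2bp3* differed by -0.67 in the KO (standard error 0.20, limma adjusted p = 0.0336), with limma adjusted p values of 0.0658, 0.212 and 0.0900 without KO replicate 1, 2 and 3 and of 0.0524 with no intensity trend, in a range from 0.0232 to 0.212 over the alternatives. In the same comparison *Malsu1*, which shares exonic bases with it, was also higher in the RNP pool with no overlap, and the part of its reads in the difference was not tested. *Pum2* was higher in the RNP pool with no overlap in either genotype, with differences of -1.07 in WT (standard error 0.36, limma adjusted p = 0.0815) and -0.43 in the KO (standard error 0.29, limma adjusted p = 0.310), neither of them called. The KO ranges were nearly touching, and without KO replicate 1 the KO difference was -0.19. *Elavl2* overlapped between the pools in both genotypes.

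**Figure D3:**
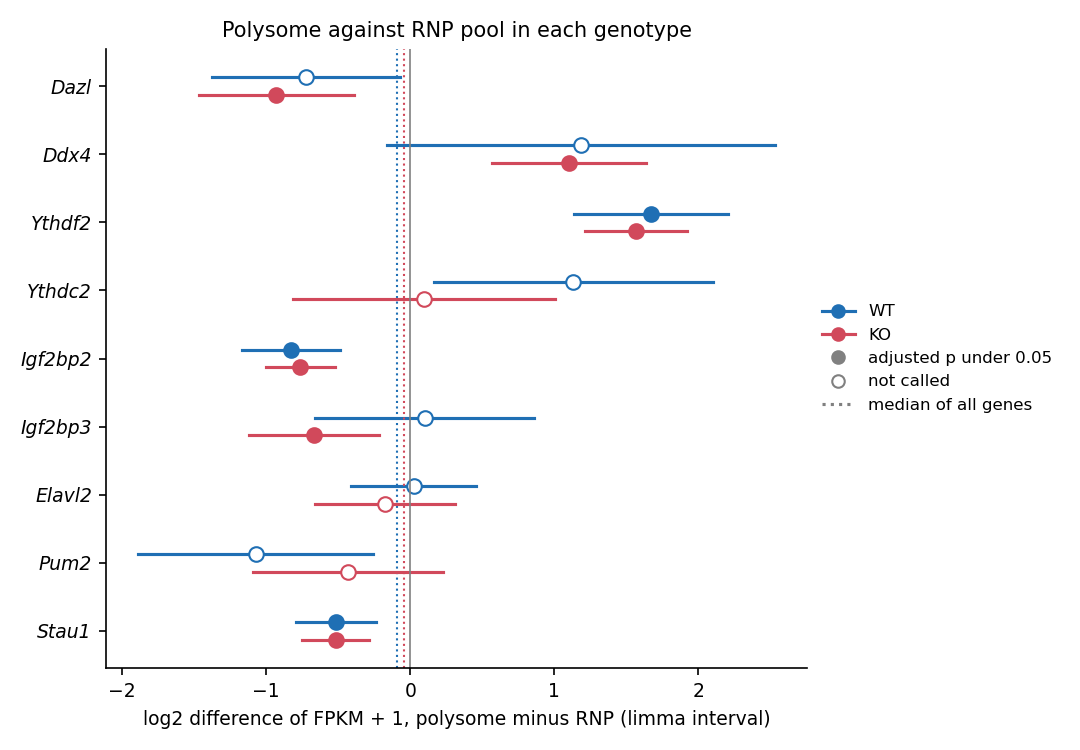
Difference between the polysome and RNP pools of each of the 9 transcripts in WT (blue) and KO (red), as log2 of FPKM + 1 with 95% intervals from limma, 3 libraries against 3. Filled points have an adjusted p under 0.05, and dotted lines mark the median of all genes tested. *Ythdf2* lies to the right of 0, and *Igf2bp2* and *Stau1* to the left, in both genotypes.

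Whether the genotype changed the polysome-to-RNP ratio was tested in a fit of all 12 libraries as the interaction of both factors. At a limma adjusted p under 0.05, 0 of the 9 ratios differed, against 0.237% of 10949 genes. At an unadjusted p under 0.05, 0 of the 9 differed, against 11.1% of genes. At the adjusted threshold 26 genes were called, 12 without WT replicate 2 and 0 without KO replicate 1, 2 or 3, where 880, 882 and 852 had an unadjusted p under 0.05. The number called was 11 with a block for replicate number and 0 with such a block within genotype. The ratio of *Dazl* changed by -0.21 with an interval from -1.07 to 0.66, and that of *Ythdf2* by -0.10 with an interval from -0.72 to 0.51. The largest ratio changes of the 9 were those of *Ythdc2*, at -1.03 with an interval from -2.19 to 0.12, *Igf2bp3*, at -0.77 with an interval from -1.61 to 0.08, and *Pum2*, at 0.64 with an interval from -0.33 to 1.62. With each replicate left out they ran from -1.35 to -0.59, from -0.99 to -0.47 and from 0.38 to 0.89. The change was -0.20 for *Elavl2*, with an interval from -0.82 to 0.42, and -0.08 for *Ddx4*, with an interval from -1.47 to 1.30. *Igf2bp2* and *Stau1* had narrower intervals, from -0.33 to 0.45 and from -0.31 to 0.31. The differences called in one genotype and not in the other are therefore not shown to differ between the genotypes.

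Related genes were described from 3 lists, whose counts stand beside the shares of all genes called by limma between the genotypes, 10.4% in polysomes and 20.7% in the RNP pool, and between the pools, 14.7% in WT and 29.2% in the KO. The m6A list held 17 writers, erasers and other readers, of which 16 were tested. In polysomes 0 of the 16 were called by limma, with a median change of 0.11 beside 0.10 for all genes, and 0 were higher and 2 lower in the RNP pool, with a median of -0.06 beside 0.05. *Rbm15b*, an adaptor of the m6A methyltransferase, was at 24.5, 17.1 and 21.8 FPKM in WT RNP and at 13.3, 11.6 and 9.08 FPKM in KO RNP, with no overlap. It changed by -0.85 (standard error 0.24, limma adjusted p = 0.0349). The other gene of the 2, *Hnrnpa2b1*, had the larger change, -1.20 (standard error 0.30, limma adjusted p = 0.0195). Between the pools, 1 m6A gene was higher in polysomes and 1 was lower in WT, and 4 were higher and 2 lower in the KO, of 16 tested in each, beside 14.7% and 29.2% of all genes called in either direction. *Ythdf1*, the paralog of *Ythdf2*, differed by 1.42 in the KO (standard error 0.31, limma adjusted p = 0.00895), the demethylase gene *Fto* by 1.29 (standard error 0.43, limma adjusted p = 0.0478) and *1110037F02Rik*, listed by RefSeq as a synonym of the methyltransferase subunit gene *Virma*, by 1.71 (standard error 0.23, limma adjusted p = 0.000657). *Rbm15b* was lower in polysomes in the KO, by -1.50 (standard error 0.39, limma adjusted p = 0.0193). In WT the differences of these genes had the same signs and were not called, at 1.30 for *Ythdf1*, 1.02 for *1110037F02Rik* and -1.40 for *Rbm15b*. For *Fto* the WT difference was larger than that in the KO, from levels of 24.2, 8.17 and 10.8 FPKM in WT polysomes and 1.88, 0.175 and 7.30 FPKM in WT RNP. The exons of *Rbm15b* and *Fto* overlap those of genes on the opposite strand, by 75 bases with *Dcaf1* for *Rbm15b*, and by 304 bases with *Gm45427* and 144 bases with *4831440D22Rik* for *Fto*. *Rbm15b* also shares 14 bases with *Manf* on its own strand.

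The second list held 21 paralogs and protein partners of the 9. In polysomes 0 of 16 tested were higher and 1 was lower, with a median change of 0.34 beside 0.10 for all genes, and 1 was higher and 2 were lower in the RNP pool, with a median of 0.01 beside 0.05. *Nanos2*, of the Nanos family of RNA-binding proteins and known from male germ cells, was at 109, 139 and 62.2 FPKM in WT polysomes, against 23.9, 30.8 and 19.3 FPKM in KO polysomes. It was at 160.5, 200.5 and 146 FPKM in WT RNP and at 61.4, 61.9 and 53.7 FPKM in KO RNP. The KO libraries were low in both pools without overlap, with changes of -1.97 (standard error 0.31, limma adjusted p = 0.00782) and -1.49 (standard error 0.14, limma adjusted p = 0.000208). *Nanos2* shares 766 exonic bases with an antisense gene, *Gm45058*. *Mael*, a germ-cell gene of transposon silencing, was at 15.7, 16.0 and 13.3 FPKM in WT RNP and at 46.9, 45.6 and 48.4 FPKM in KO RNP. That change was 1.59 (standard error 0.17, limma adjusted p = 0.000377). Between the pools 1 gene of the list was higher in polysomes in WT, *Tdrd1*, and in the KO 4 were higher and 2 lower. *Tdrd1*, a partner of piRNA pathway proteins, differed by 1.67 in the KO (standard error 0.18, limma adjusted p = 0.00016), and *Cnot1*, the scaffold of the deadenylase complex, by 1.50 (standard error 0.30, limma adjusted p = 0.00546), and *Mael* was lower in polysomes by -1.10 (standard error 0.15, limma adjusted p = 0.000732). *Nanos2* was also lower in polysomes in the KO, by -1.25 (standard error 0.19, limma adjusted p = 0.00125). In WT the differences were 0.75 for *Tdrd1*, and 0.98 for *Cnot1*, -0.39 for *Mael* and -0.77 for *Nanos2*, which were not called. The exons of *Cnot1* share 132 bases with *4930513N10Rik* on the opposite strand.

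The third list held 6 transcripts with published binding or control by DAZL in germ cells. In polysomes 1 of 5 tested was higher and 0 were lower, with a median change of 0.69 beside 0.10 for all genes, and in the RNP pool 2 of 4 were higher and 0 lower, with a median of 0.87 beside 0.05. Of all genes tested 5.64% were higher in polysomes and 10.5% in the RNP pool, and a list of 4 or 5 genes is too short to set against these shares. *Sycp3*, a component of the synaptonemal complex, was at 8.73, 4.24 and 10.2 FPKM in WT polysomes, against 44.9, 38.4 and 27.0 FPKM in KO polysomes. In the RNP pool it was at 1.94, 5.46 and 2.24 FPKM in WT and at 16.9, 14.5 and 19.3 FPKM in the KO. The KO was high in both pools with no overlap, and the changes of *Sycp3* were 2.16 in polysomes (standard error 0.37, limma adjusted p = 0.0106) and 2.17 in the RNP pool (standard error 0.35, limma adjusted p = 0.00308). Its exons share 660 bases with *Chpt1* on the opposite strand. *Tex19.1* rose by 0.33 in the RNP pool (standard error 0.10, limma adjusted p = 0.0479). Its polysome change was -0.06 and was not called (standard error 0.28, limma adjusted p = 0.918). *Tpx2*, a spindle assembly gene, was at 17.8, 16.1 and 21.7 FPKM in WT polysomes, against 32.3, 30.2 and 28.1 FPKM in KO polysomes, which was not called. The RNP change of *Tpx2* was 0.15, also not called (standard error 0.22, limma adjusted p = 0.673). Between the pools 0 of 4 were higher and 1 was lower in WT, and 2 of 5 were higher and 1 was lower in the KO. *Tex19.1* was the lower one in both, by -0.95 in WT and -1.35 in the KO, and *Tpx2* differed by 0.42 in WT, not called, and by 0.96 in the KO. The ratio of 0 genes on the 3 lists differed between the genotypes in limma.

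**Figure D4:**
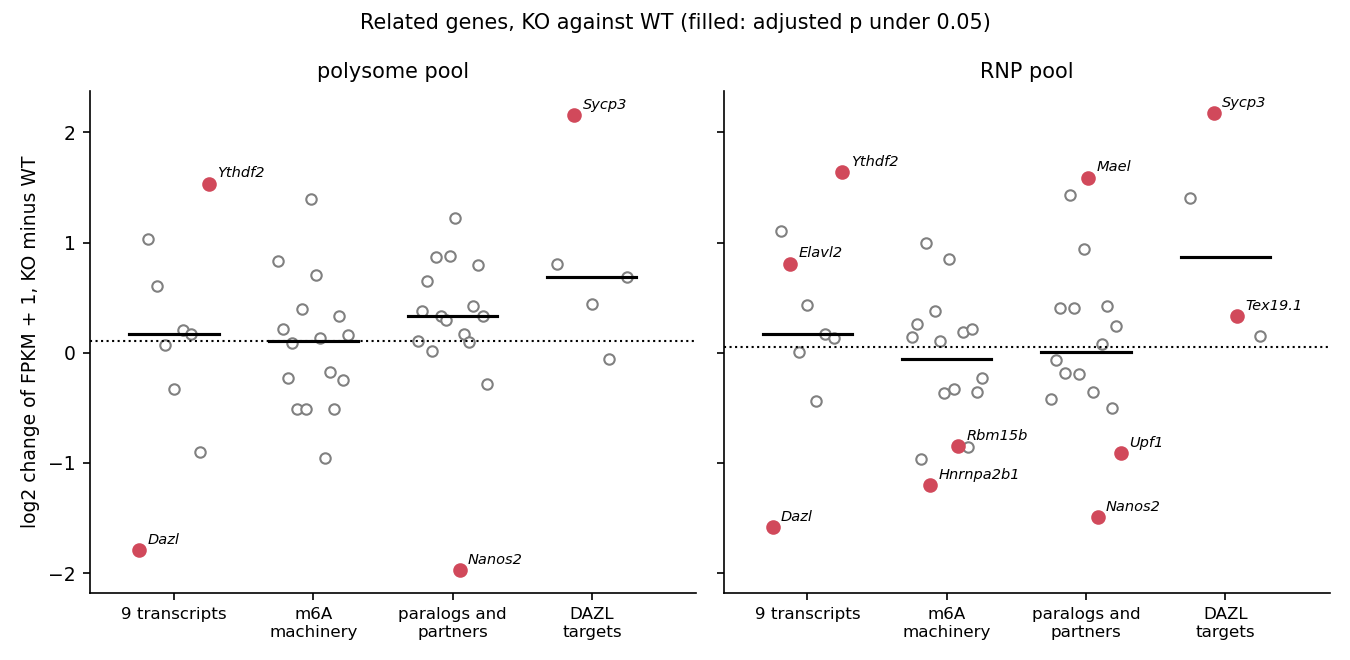
Change between KO and WT of the 9 transcripts and of the genes of 3 related lists in each pool, as log2 of FPKM + 1. Each point is a gene tested, filled where the limma adjusted p was under 0.05, solid lines are list medians, and the dotted line is the median of all genes, 0.10 in polysomes and 0.05 in the RNP pool. *Dazl* and *Nanos2* are low and *Ythdf2* and *Sycp3* are high in both pools.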

How the data were processed

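The deposited FPKM values, 1 row a gene symbol, were the input. The authors had made them from Smart-seq2 libraries with TopHat2 2.0.13 on mm10, followed by Cufflinks 2.2.1. Cuffnorm is also named among their tools, and whether the values had been rescaled between libraries was not tested. The annotation release is not given in the sources used here. The authors' table also holds Cuffdiff log2 changes, p-values and q-values of comparisons between groups and libraries, which were not used. FPKM holds no counts. Fragments a library were estimated from the steps of low values, on the assumption that the effective length is the longest annotated transcript less 200 bases.

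Tests used limma 3.58.1 in R 4.3.3 on log2(FPKM + 1), with eBayes and its intensity trend, for genes that reached 1 FPKM in 3 or more of the libraries compared. Benjamini-Hochberg adjustment ran over all genes tested, at 0.05. The 5 comparisons were KO against WT in each pool, the pools in each genotype and the interaction. Alternatives were pseudocounts of 0.1 and 5, no filter and a filter at 5 FPKM, scaling to the same median, quantile normalization, no intensity trend, replicate blocks and each replicate left out. Genes named are the 9 members, *Lsm14b*, for each list at most the 4 genes with the largest change among those called in a comparison, and the 3 genes most correlated with each member but *Ythdc2*, whose mean was under 5 FPKM. *Hnrnpa2b1*, *Sdad1*, *Malsu1*, *Gm45058*, *Chpt1*, *Dcaf1*, *Gm45427*, *4831440D22Rik*, *Manf*, *4930513N10Rik*, *Mir300* and the cell type markers fall outside this rule. The marker sum without *Inha* was added after the sums were seen. The members and lists were chosen with earlier results of these data known. Sequences and exons came from GENCODE M21 on GRCm38, from the transcript of each gene with the longest coding part among those with a 3′ UTR of at least 100 bases, after a first choice without that minimum had left out *Elavl2*. Other software was Python 3.11.15, pandas 2.3.3, numpy 2.4.6 and matplotlib 3.10.9.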

Additional observations from a re-analysis of the deposited data

How the results depend on the processing

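Of the recomputed changes of single transcripts, 533 kept their direction and their side of the threshold, 19 lost and 3 gained a call, and 25 changed sign, each of them a change that had not been called. With no filter on low values and with no intensity trend, the genes called between KO and WT in polysomes numbered 545 and 508 in place of 989, and the transcripts of the 9 numbered 1 in each case in place of 2. With no intensity trend, 728 genes in place of 1406 differed between the pools in WT and 6 in place of 26 in the ratio. With each replicate left out in turn, the genes called numbered 383 to 790 in polysomes and 1255 to 1911 in the RNP pool between genotypes, 587 to 648 between pools in WT, 1706 to 2087 in the KO and 0 to 26 for the ratio (852 to 1445 at an unadjusted p under 0.05). The transcripts called were then 1 to 2 in polysomes, 3 to 4 in the RNP pool, 1 to 2 between pools in WT and 3 to 5 in the KO. Fewer libraries enter these fits, and the cause of the other moves was not tested.

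The deviations of libraries that share a replicate number had mean correlations of -0.0054 between the polysome groups, 0.0147 between the RNP groups, -0.0041 in WT and -0.0047 in the KO. For libraries with other numbers they were 0.0027, -0.0074, 0.002 and 0.0024. As deviations were taken from the mean of each group, these values are nearly fixed by the first ones and are no separate reference. With a replicate block the ratio differed for 11 genes, and with a replicate block within genotype for 0 (1129 at an unadjusted p under 0.05). *Stau1* between the pools in WT was not called with the replicate block (limma adjusted p = 0.0601), and the block changed no other call of the 9.

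The sign changed under quantile normalization for *Igf2bp2* between genotypes in the RNP pool (-0.11), and for the ratio with a pseudocount of 5 for *Ddx4* (0.20) and *Stau1* (-0.0013) and after scaling to the same median for *Stau1* (-0.0427). With each replicate left out, it changed between genotypes in polysomes for *Pum2* (-0.0286 to 0.50) and *Igf2bp2* (-0.042 to 0.21), and in the RNP pool for *Igf2bp2* (-0.0097 to 0.0318) and *Ythdc2* (-0.0678 to 0.27). It changed between pools in WT for *Igf2bp3* (-0.19 to 0.33) and *Elavl2* (-0.0196 to 0.088), and in the KO for *Elavl2* (-0.39 to 0.0454) and *Ythdc2* (-0.22 to 0.54). For the ratio it changed for *Dazl* (-0.41 to 0.10), *Ddx4* (-0.70 to 0.60), *Ythdf2* (-0.30 to 0.21), *Igf2bp2* (-0.0545 to 0.18), *Elavl2* (-0.42 to 0.0212) and *Stau1* (-0.0475 to 0.0866). *Ythdc2* has no value with a filter at 5 FPKM, which it did not pass. Depth limits *Ddx4* and *Ythdc2* most, at 11.8 to 274 and 38.3 to 239 estimated fragments a library.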

Other observations

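For 8 of the 9 transcripts, all but *Ythdc2* with its low level, the genes with the most similar pattern were searched among 6680 genes by Pearson correlation of log2(FPKM + 1) over the 12 libraries. These libraries fall into 4 groups, so the values describe shared differences between groups and carry no test. Most like *Dazl* were *Dnajc14* (0.979), *Mul1* (0.965) and *AU022751* (0.959). Most like *Ythdf2* were *Atg16l1* (0.984), *Rnf4* (0.981) and *Hspa5* (0.980). *Ddx4* was nearest to *Dctn6* (0.955), *Pgm2* (0.941) and *Pdhx* (0.941), and *Elavl2* to *Abce1* (0.931), *Usp31* (0.930) and *Rffl* (0.929). For *Igf2bp2* the genes were *Atp2a2* (0.973), *Gm3143* (0.963) and *Pcbp2* (0.960), and for *Igf2bp3* they were *Mrps21* (0.890), *Pip5k1c* (0.842) and *Gyk* (0.834). For *Pum2* they were *Irf8* (0.954), *Dnajc8* (0.921) and *Ddb2* (0.909), and for *Stau1* *Zfp57* (0.967), *Dedd* (0.965) and *Kif22* (0.960).

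In KO polysome replicate 2, the library with the high *Mir300* value, *Dazl* was lower and *Elavl2* was higher than in the other KO polysome libraries.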
